A study of Mus musculus with 8 samples.

Results

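Erythroid and megakaryocyte transcription factors were followed in sorted mouse bone marrow cells. The set holds 10 genes, taken by gene symbol from the 19938 genes measured: Gata1, Gata2, Klf1, Tal1, Zfpm1, Gfi1b, Nfe2, Lmo2, Fli1 and Runx1. Each is read by 1 probe set, so the choice of the brightest probe set did not come into play. RNA came from 8 independent preparations of flow-sorted C57BL/6J bone marrow, each pooled from 4 or 6 mice and hybridised to 1 Affymetrix array. The KLS gate (c-Kit and Sca-1 present, lineage markers lacking) contains blood stem cells with multipotent progenitors, while the MEP gate contains progenitors committed to red cells and megakaryocytes. Each cell type was taken from wild-type mice (WT) and from mice labelled ∆Hmga2 (TG in the sample titles), with 2 arrays in each of the 4 groups. The sources used here do not give the promoter of the altered gene, the cells it acts in or the mice's age, and the pools hide differences between single mice.

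These factors form the core of the erythroid and megakaryocyte programme. Gata2 acts in stem and early progenitor cells and mast cells, and Gata1 takes over its binding sites as red cells and megakaryocytes form, an exchange known as the GATA switch. Tal1, a helix-loop-helix factor, and the bridging protein Lmo2 join GATA factors in a shared complex, and Zfpm1 (FOG-1) is the zinc finger partner that Gata1 needs in both lineages. Klf1 directs the red cell branch and the ETS factor Fli1 the megakaryocyte branch, and the pair are known to oppose each other. Gfi1b is a repressor needed in both branches, Nfe2 is needed to make platelets, and Runx1 founds definitive blood stem cells and later supports megakaryocytes.

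The sequences before the start sites of the 3 members whose KLS and MEP arrays did not overlap (Gata1, Klf1 and Runx1) are shown because those members separated the cell types on every array. They were taken from RefSeq on GRCm38.p6, which held windows for 7 of the 10 members, 10 windows in all. Each is the 250 bases before a start site, written 5′ to 3′ on the gene's own strand. Capitals mark the GATA motif (AGATAA or AGATAG, and likewise TGATAA or else TGATAG), the CACCC box that KLF factors bind (CACCC) and a RUNX motif (TGTGGT), each searched on both strands, with no overlap among the marked letters.
Gata1, chrX:7967911-7968160 (- strand): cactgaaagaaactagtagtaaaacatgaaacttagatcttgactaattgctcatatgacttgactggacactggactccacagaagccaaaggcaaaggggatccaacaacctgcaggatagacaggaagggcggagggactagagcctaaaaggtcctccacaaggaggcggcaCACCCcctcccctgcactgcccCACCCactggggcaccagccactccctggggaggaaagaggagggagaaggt
Klf1, chr8:84901732-84901981 (+ strand): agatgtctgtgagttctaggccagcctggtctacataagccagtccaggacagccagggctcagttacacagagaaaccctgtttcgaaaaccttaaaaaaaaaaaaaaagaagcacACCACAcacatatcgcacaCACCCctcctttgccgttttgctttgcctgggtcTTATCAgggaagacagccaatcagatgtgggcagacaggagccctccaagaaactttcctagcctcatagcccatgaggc
Runx1, upstream start site, chr16:92826075-92826324 (- strand): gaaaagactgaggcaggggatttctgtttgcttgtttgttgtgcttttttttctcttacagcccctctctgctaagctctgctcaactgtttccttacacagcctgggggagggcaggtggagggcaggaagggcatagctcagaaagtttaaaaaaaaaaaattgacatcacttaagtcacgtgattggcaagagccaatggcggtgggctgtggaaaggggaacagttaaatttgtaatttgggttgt
Runx1, downstream start site, chr16:92697330-92697579 (- strand): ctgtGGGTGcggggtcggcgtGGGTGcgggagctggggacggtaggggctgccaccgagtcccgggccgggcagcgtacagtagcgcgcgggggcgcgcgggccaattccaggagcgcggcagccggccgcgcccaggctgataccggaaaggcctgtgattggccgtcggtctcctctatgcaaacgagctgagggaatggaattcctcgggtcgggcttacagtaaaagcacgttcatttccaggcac
The Klf1 window held 1 GATA match, 1 CACCC match and 1 RUNX match, and the Gata1 window held 2 CACCC matches close to its start. The downstream Runx1 window held 2 CACCC matches, and the upstream one had no match to these 3 motifs. Over the members' 10 windows, 3 held a GATA match (Klf1, Tal1 and Gfi1b), 7 a CACCC match and 1 a RUNX match. The E-box (CANNTG, with N any base) was also searched but not marked in capitals, and 4 of the windows held it. Of all 32851 windows of the same length, 26.5% held the GATA motif, 52% the CACCC box, 14% the RUNX motif and 66.2% the E-box. A match describes the letters and is not a measured binding site.

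Deposited array medians (log2) ran from 6.34 to 6.45, and replicates correlated across genes at 0.98 to 0.99. The sorted fractions were checked against marker lists. Of 9 measured KLS markers, 6 passed as higher in KLS cells by limma, among them Hlf, a stem cell factor, and Flt3, a receptor of multipotent progenitors. Markers of other lineages also passed as higher in KLS cells. These were 8 of 15 of granulocytes and monocytes (15 above 0) and 3 of 8 of mast cells and basophils. Of 8 T and NK markers 2 passed, Ccr9 and Nkg7. Cd3d, Cd3e, Cd3g and Cd2 stood at 0.19, -0.05, 0.16 and 0.20 (KLS minus MEP) and did not pass. The part of all these markers in the members' differences was not tested. Of 11 early erythroid markers, 10 were below 0 in KLS minus MEP and 2 passed as higher in MEP cells. The mean log2 level of that list was 9.56 to 9.66 on the KLS arrays and 9.89 to 10.03 on the MEP arrays. The fractions thus lay close together on these markers, and signal for them was high in KLS cells too. Sca-1 (Ly6a) was not measured by a probe set with 1 gene symbol. Hmga2 itself was at 6.85 and 7.12 in WT KLS, 7.35 and 7.11 in TG KLS, 6.70 and 6.74 in WT MEP and 6.95 and 6.99 in TG MEP cells. The genotypes overlapped among the KLS arrays but not among the MEP arrays, and Hmga2 did not pass over both cell types (limma adjusted p = 0.999). The sources used here do not say which part of Hmga2 was altered, so its probe set does not check the genotype labels.

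The array WT MEP 1 stood apart from the other MEP arrays in markers of other cells. Among the 4 MEP arrays it was the highest for 7 of 7 B lineage markers, 7 of 8 T and NK markers, 15 of 15 granulocyte and monocyte markers and 7 of 9 KLS markers, where 25.8% of all genes were highest on it. The mean log2 level of the B lineage list was 9.29 on WT MEP 1, 7.16 on WT MEP 2, 7.10 and 7.06 in TG MEP cells and 7.64 to 8.13 over the KLS arrays. For the KLS list the means were 7.43 on WT MEP 1, 6.61 on WT MEP 2, 6.60 and 6.71 in TG MEP cells and 8.09 to 8.44 over the KLS arrays. For granulocyte and monocyte markers they were 9.14, 8.46, 7.75 and 7.98 on the same MEP arrays, and 9.75 to 10.31 in KLS cells. Late erythroid markers had means of 8.77 and 8.68 in WT MEP, 8.01 and 8.19 in TG MEP and 7.57 to 8.45 in KLS cells. Array values carry no true zero, so no marker can be called absent. Gata1, Fli1, Runx1 and Nfe2 are given with and without that array.

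KLS and MEP cells were compared to see how the factors differ between multipotent and committed cells. Gata1, Klf1, Tal1 and Gfi1b had their higher mean in MEP cells, and Fli1, Runx1, Nfe2, Lmo2, Zfpm1 and Gata2 in KLS cells. The largest differences were those of Fli1 (2.94 fold toward KLS), Runx1 (1.69 fold toward KLS) and Gata1 (1.41 fold toward MEP). By limma over all 8 arrays, 0 of the 10 members passed the threshold (Benjamini-Hochberg adjusted p under 0.05 over all 19938 genes), where 1.60% of all genes did. At an unadjusted p under 0.05 there were 3 members (Gata1, Fli1 and Runx1), beside 14.3% of all genes. The KLS and MEP arrays did not overlap for 3 members (Gata1, Klf1 and Runx1), beside 9.04% of all genes. The median size of the difference, without sign, was 0.20 over the members and 0.11 over all genes.

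**Figure D1:**
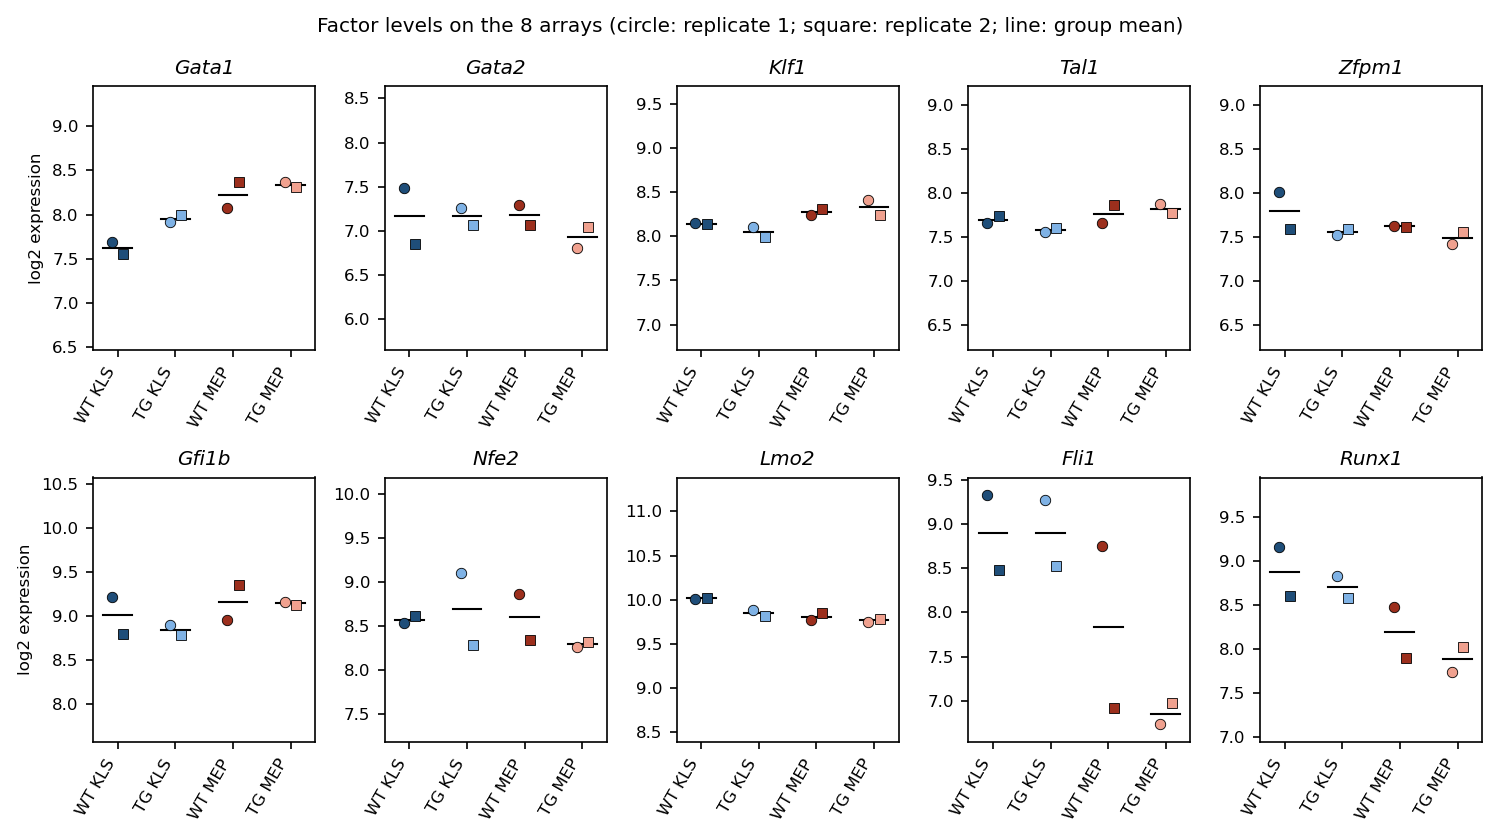
Log2 expression of each factor (vertical axis, the same span of log2 units in every panel) on the 8 arrays, by group; circles are replicate 1, squares replicate 2 and lines group means. Gata1 lies higher on every MEP array than on any KLS array, while Fli1 on WT MEP 1 lies at 8.76, among the KLS arrays and away from the other MEP arrays at 6.73 to 6.97.

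Gata1, the master factor of red cell and megakaryocyte maturation (probe set 10603417, Entrez gene 14460), was at 7.69 and 7.55 on the WT KLS arrays and 7.92 and 7.99 on the TG KLS arrays. In MEP cells it was at 8.07 and 8.37 on the WT and 8.37 and 8.31 on the TG arrays. All 4 MEP arrays lay above all 4 KLS arrays, with the narrowest gap between TG KLS 2 and WT MEP 1. KLS minus MEP was -0.50 ± 0.11 (SE, 95% interval -0.74 to -0.25, limma adjusted p = 0.057). Without WT MEP 1 it was -0.57, and with 1 array left out it ran from -0.57 to -0.42. Among the alternatives that kept all 8 arrays, Gata1 passed only without the dimmest 30% of genes (limma adjusted p = 0.0465). Ordered by group mean, Gata1 was lowest in WT KLS, then TG KLS, WT MEP and TG MEP cells. The WT and TG KLS arrays did not overlap, as was so for 29.0% of all genes, and that difference did not pass. The WT and TG MEP arrays overlapped.

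Gata2, the GATA factor of stem and early progenitor cells (probe set 10539873, Entrez gene 14461), was at 7.48 and 6.85 on the WT KLS, 7.25 and 7.07 on the TG KLS, 7.29 and 7.07 on the WT MEP and 6.80 and 7.04 on the TG MEP arrays. All groups overlapped with at least 1 other, and the 2 WT KLS arrays alone lay 0.63 apart. KLS minus MEP was 0.11 ± 0.15 (SE, 95% interval -0.23 to 0.46, limma adjusted p = 0.859), and it turned to -0.0452 without WT KLS 1. The within-array log2 difference of Gata1 and Gata2, whose size has no meaning across probe sets but whose shift between arrays does, was 0.21, 0.69, 0.66 and 0.92 on the KLS arrays in the order WT 1, WT 2, TG 1 and TG 2. On the MEP arrays in that order it was 0.78, 1.30, 1.56 and 1.27. The balance lay further toward Gata1 on 3 of the 4 MEP arrays than on any KLS array, and WT MEP 1 fell within the KLS range.

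Klf1, the activator of globin and red cell membrane genes (probe set 10573457, Entrez gene 16596), was at 8.15 and 8.14 on the WT KLS and 8.11 and 7.995 on the TG KLS arrays. It was at 8.24 and 8.31 on the WT MEP and 8.42 and 8.24 on the TG MEP arrays. The cell types did not overlap, but the step was small. KLS minus MEP was -0.20 ± 0.10 (SE, 95% interval -0.42 to 0.02, limma adjusted p = 0.4), a 1.15-fold difference.

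The partners of the GATA complex moved little. Tal1 (probe set 10507131, Entrez gene 21349) lay between 7.56 and 7.74 on the KLS arrays and between 7.66 and 7.87 on the MEP arrays, a difference of -0.15 (95% interval -0.38 to 0.07). Lmo2 (probe set 10474201, Entrez gene 16909) lay between 9.82 and 10.02 in KLS and between 9.75 and 9.85 in MEP cells, a difference of 0.14 (95% interval -0.06 to 0.35). Lmo2 had the narrowest spread of the 10 members over the 8 arrays, with a range of 0.28. Zfpm1 (probe set 10576090, Entrez gene 22761) lay between 7.52 and 8.01 in KLS and between 7.42 and 7.63 in MEP cells, a difference of 0.12 (95% interval -0.14 to 0.39), and its highest value was WT KLS 1 alone. Its difference was 0.0205 without that array and 0.23 without WT KLS 2. The intervals of Tal1, Lmo2 and Zfpm1 exclude a 2-fold difference between the cell types.

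Gfi1b and Nfe2 also overlapped between the cell types. Gfi1b, the repressor that binds the corepressor Kdm1a (probe set 10481304, Entrez gene 14582), lay between 8.79 and 9.22 in KLS and between 8.96 and 9.36 in MEP cells. Its difference was -0.23 (95% interval -0.53 to 0.08), and it was -0.12 without WT KLS 2 and -0.33 without WT KLS 1. Nfe2, a subunit of the factor NF-E2 that drives late platelet genes (probe set 10433096, Entrez gene 18022), was at 8.53 and 8.61 on the WT KLS, 9.10 and 8.28 on the TG KLS, 8.86 and 8.34 on the WT MEP and 8.27 and 8.31 on the TG MEP arrays. TG KLS 1 and WT MEP 1 were the highest, and the difference of 0.19 (95% interval -0.24 to 0.61) turned to -0.0186 without TG KLS 1 and was 0.32 without WT MEP 1.

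Fli1, the ETS factor of the megakaryocyte branch (probe set 10592067, Entrez gene 14247), was at 9.33 and 8.48 on the WT KLS and 9.27 and 8.53 on the TG KLS arrays. It was at 8.76 and 6.92 on the WT MEP and 6.73 and 6.97 on the TG MEP arrays. The level on 3 MEP arrays lay more than 1 log2 unit below every KLS array, and WT MEP 1 lay inside the KLS range. KLS minus MEP was 1.56 ± 0.38 (SE, 95% interval 0.70 to 2.41, limma adjusted p = 0.0832). Without WT MEP 1 it was 2.02 ± 0.26, and with 1 array left out it ran from 1.10 to 2.02. Among the alternatives that kept all 8 arrays, Fli1 passed with the replicate block alone. In bulk RNA, fewer cells of a type and less RNA per cell cannot be told apart.

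Runx1, the core binding factor of blood stem cells (probe set 10441003, Entrez gene 12394), was at 9.15 and 8.60 on the WT KLS and 8.83 and 8.57 on the TG KLS arrays. It was at 8.47 and 7.90 on the WT MEP and 7.74 and 8.02 on the TG MEP arrays. All KLS arrays lay above all MEP arrays, with WT MEP 1 nearest to them. KLS minus MEP was 0.75 ± 0.17 (SE, 95% interval 0.36 to 1.15, limma adjusted p = 0.071). Without WT MEP 1 it was 0.90 ± 0.17 and passed (adjusted p = 0.0322), but not on the values as deposited without that array (adjusted p = 0.0564). Over the alternatives with a single change, adjusted p ran from 0.0322 to 0.241. By group mean Fli1 and Runx1 were higher in both KLS groups than in either MEP group. Within each cell type the WT and TG arrays overlapped for both genes.

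**Figure D2:**
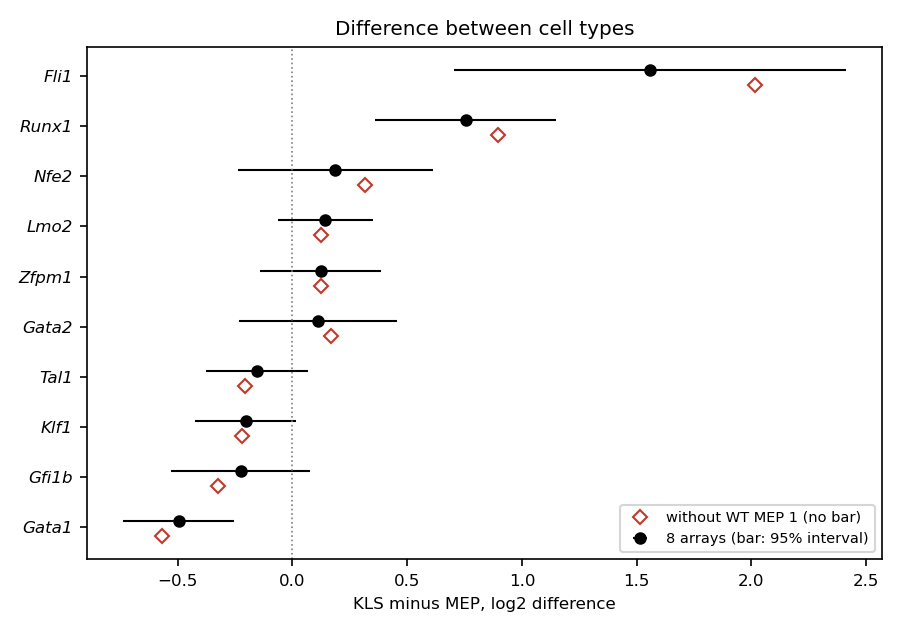
KLS minus MEP log2 difference (horizontal axis) of each factor over both genotypes; black points are estimates from 8 arrays with their 95% interval, and open diamonds leave out WT MEP 1. The intervals of Fli1 (0.70 to 2.41), Runx1 (0.36 to 1.15) and Gata1 (-0.74 to -0.25) lie clear of 0, although none passed over all genes.

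Without WT MEP 1 the KLS minus MEP difference was -0.57 for Gata1, 2.02 for Fli1 and 0.90 for Runx1. On all 8 arrays it was -0.50, 1.56 and 0.75. Among the MEP arrays, WT MEP 1 lay closest to the KLS arrays for each of these genes. Leaving it out therefore had to widen the differences, so the wider values are not separate support. Most B lineage, T and NK, granulocyte and KLS markers, given above, were also highest among the MEP arrays on WT MEP 1. This rests on 1 array, and their part in its Fli1 and Runx1 levels was not tested. Within WT cells 0 members passed, beside 0.00502% of all genes, and within TG cells 0 passed, beside 0.135%. The differences within WT and within TG cells share no arrays, but their standard errors come from a spread pooled over all 8 arrays. The tests are therefore not independent. For Fli1 the SD between replicates was 1.30 in WT MEP and 0.17 in TG MEP cells, and the wide WT spread enters the TG error too. Gata1 stood at -0.60 ± 0.15 in WT and -0.39 ± 0.15 in TG cells, Klf1 at -0.13 ± 0.14 and -0.28 ± 0.14, Runx1 at 0.69 ± 0.24 and 0.82 ± 0.24, and Fli1 at 1.07 ± 0.53 and 2.05 ± 0.53 (KLS minus MEP, SE). Leaving out WT MEP 1 gave a WT difference of 1.99 for Fli1, and leaving out WT MEP 2 gave 0.15. The test of the difference between these changes, the interaction, called 0 members and 0% of all genes, and for Fli1 it was 0.98 (95% interval -0.73 to 2.68).

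**Figure D3:**
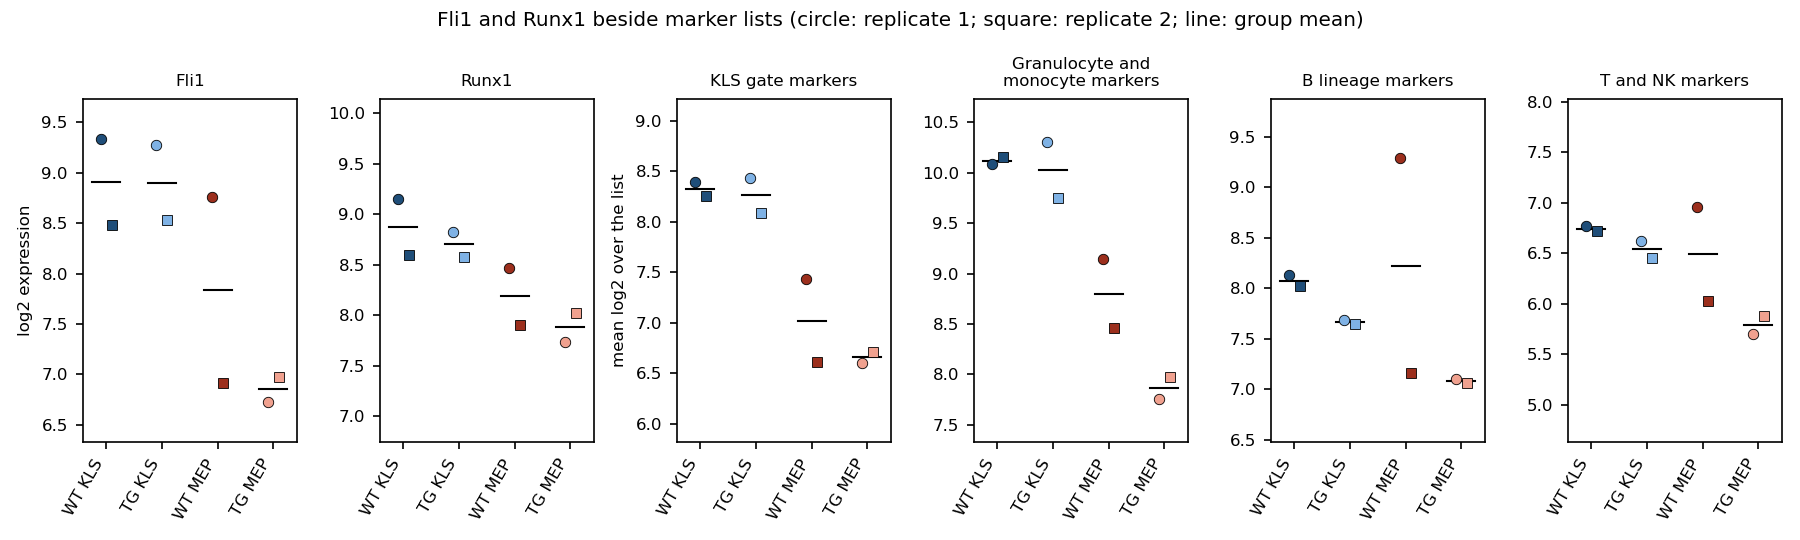
Log2 expression of Fli1 and Runx1 and the mean log2 level of 4 marker lists (vertical axes, the same span of log2 units in every panel) on the 8 arrays by group; circles are replicate 1, squares replicate 2 and lines group means. On WT MEP 1, Fli1 at 8.76 and the B lineage mean at 9.29 lie far above the other MEP arrays.

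Lists of partners, targets and opposing factors were described in the same comparison by their counts and medians beside all genes, whose median was 0.01. Of 24 partners and cofactors 0 passed the threshold, with a median KLS minus MEP difference of 0.07. The partner with the largest difference was Cbfb, the subunit that lets Runx1 bind DNA firmly. It was at 9.43, 9.27, 9.57 and 9.15 on the KLS arrays, 9.49 on WT MEP 1, 8.03 on WT MEP 2 and 8.12 and 8.21 on the TG MEP arrays. Its difference was 0.89 ± 0.27 (limma adjusted p = 0.155), and 1.26 ± 0.14 without WT MEP 1, where it passed (adjusted p = 0.00455). Lyl1, the relative of Tal1, was at 0.36 ± 0.10 and did not pass (adjusted p = 0.112).

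Of 22 other erythroid and megakaryocyte factors, 4 were called as higher in KLS cells and 0 as lower, with a median of 0.16. Over all genes, 1.20% were called as higher in KLS cells and 0.396% as lower. The stem cell homeobox gene Meis1 stood at 2.05 ± 0.36, the ETS factors Erg and Etv6 at 1.31 ± 0.23 and 1.24 ± 0.24, and the stem cell zinc finger gene Mecom at 0.86 ± 0.11 (limma adjusted p = 0.0362, 0.0364, 0.0458 and 0.0136). Meis1 and Mecom are also on the KLS marker list used to check the sort. Of 13 opposing myeloid and lymphoid factors 1 was called, beside the same 1.20% of all genes, with a median of 0.38. This was Spi1 (PU.1), the ETS factor that antagonises Gata1, at 7.60, 6.93, 7.03 and 6.64 on the KLS arrays and at 6.31, 5.66, 5.54 and 5.82 on the MEP arrays. Its difference was 1.22 ± 0.20 (limma adjusted p = 0.0343). Without WT MEP 1 the median of the 13 was 0.61, beside -0.01 over all genes.

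Erythroid targets of Gata1 and Klf1 lay on the MEP side. Of 35 measured, 33 were below 0, 4 were called as higher in MEP cells and 0 as higher in KLS cells, with a median of -0.46. Of all genes 53.5% were above 0, 0.396% were called as higher in MEP cells and 1.20% as higher in KLS cells. The called genes were the CDK inhibitor Cdkn2c at -0.80 ± 0.15, the blood group gene Rhd at -0.77 ± 0.13, the porphyrin transporter Abcb6 at -0.68 ± 0.11 and the transferrin receptor Tfrc at -0.56 ± 0.10 (limma adjusted p = 0.0458, 0.0364, 0.0346 and 0.0407). Rhd and Tfrc are also the early erythroid markers that passed in the check of the sort. Other targets are on the early or late erythroid marker lists as well, so the target list is not separate from them.

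Megakaryocyte targets of Gata1, Fli1, Nfe2 and Runx1 lay on the KLS side. Of 24 measured, 20 were above 0 and 1 was called, with a median of 0.23, beside the same 53.5% and 1.20% of all genes. The called gene, the thromboxane synthase Tbxas1, stood at 0.79 ± 0.15 (limma adjusted p = 0.0465). With WT MEP 1 left out, 5 were called, and 1 of these, the chemokine receptor Cxcr2, is better known from neutrophils. The 9 measured megakaryocyte and platelet markers are all among these 24 targets and are not a separate set. Of the 9 markers, 6 were above 0 and 0 passed by limma. They ran from -0.20 ± 0.16 for the platelet glycoprotein Gp5 to 1.57 ± 0.36 for the platelet chemokine Pf4 (limma adjusted p = 0.689 and 0.0686). The mean log2 level of the 9 was 6.75 to 6.93 on the KLS arrays and 6.53 to 6.70 on the MEP arrays. That is near the deposited array medians of 6.34 to 6.45. Signals that low may lie at background, since no detection calls were used.

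Genes that Gata2 binds before Gata1 were also on the KLS side, with 9 of 11 above 0 and 3 called. Their median was 0.46, and of all genes 53.5% were above 0 and 1.20% called as higher in KLS cells. The progenitor antigen Cd34 stood at 2.97 ± 0.27, the mast cell protease Cpa3 at 1.44 ± 0.27 and the histamine enzyme Hdc at 0.78 ± 0.15 (limma adjusted p = 0.00805, 0.0433 and 0.0433). Cd34 is also on the KLS marker list used to check the sort, and is among the markers that passed there. Cpa3 and Hdc are also on the mast cell and basophil list, whose mean was 6.17 to 6.73 on the KLS arrays and 5.55 to 6.09 on the MEP arrays. The part of such cells in the result was not tested. Of the 13 list genes called in these 6 lists, 0 passed without TG MEP 1, 1 (Cd34) without TG KLS 1 or without TG MEP 2, and 2 (Mecom and Cd34) without WT KLS 1. With each array centred on its median 4 passed (Mecom, Spi1, Rhd and Cd34).

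**Figure D4:**
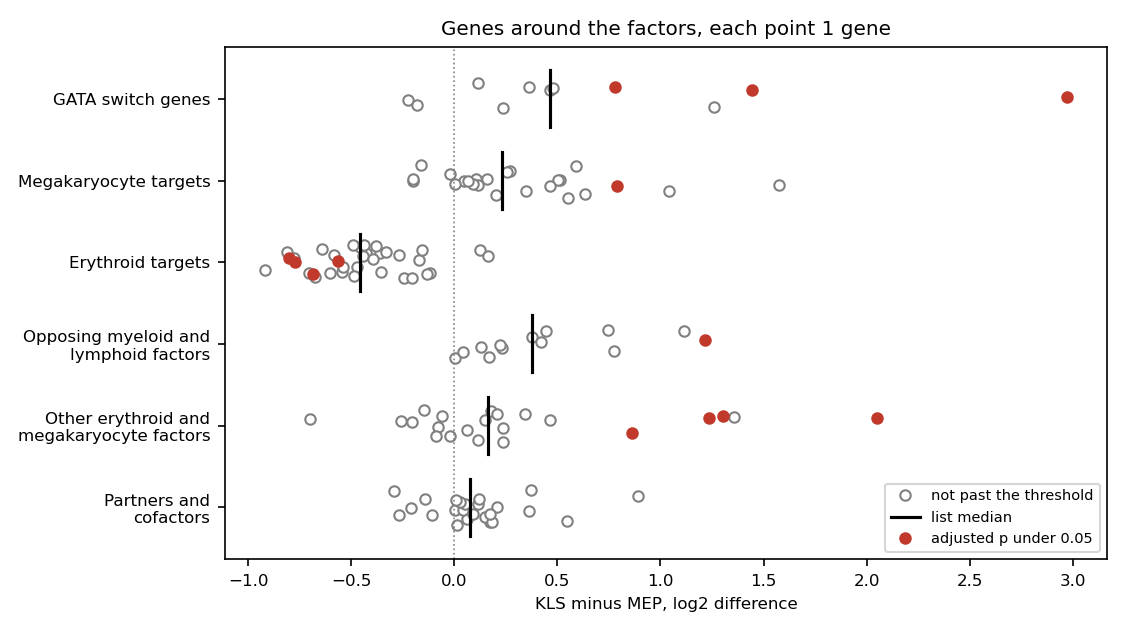
KLS minus MEP log2 difference (horizontal axis) of each gene in the 6 lists (rows); filled points passed limma's threshold over all genes, open points did not, and bars are list medians. The erythroid targets have their median at -0.46, and the other lists have medians from 0.07 to 0.46.

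The genes whose pattern over the 8 arrays was most like that of Gata1, by the root mean square difference of mean-centred log2 levels, were Celf1, Rnf17, Mettl16, Jmy and Rcbtb1, at 0.06 to 0.08 where the spread of Gata1 itself was 0.29. For Gata2 they were Rasgef1b, Smarcc2, Taok3, Snx9 and Nr2c2, at 0.05 to 0.06 beside a spread of 0.21. For Klf1 they were Slc3a1, Rbm17, Gpld1, Rdh8 and Insm1, at 0.03 to 0.05, but the spread of Klf1 was only 0.12. None of these 15 genes is in the lists of partners or targets.

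The genotype comparison asks whether the factors differ in cells of ∆Hmga2 mice. In KLS cells the largest difference was that of Gata1, at 7.92 and 7.99 in TG and 7.69 and 7.55 in WT cells. TG minus WT was 0.33 ± 0.15 (SE, 95% interval -0.01 to 0.67, 1.26 fold), and it did not pass (limma adjusted p = 1). By limma 0 members and 0% of all genes passed in KLS cells, and at an unadjusted p under 0.05 there were 0 members and 500 genes, 2.51% of all. TG and WT arrays did not overlap for 4 members, beside 29.0% of all genes. Gata1 was higher in TG cells, and Klf1 (-0.09), Tal1 (-0.12) and Lmo2 (-0.17) were lower. The members' differences ran from -0.24 (Zfpm1) to 0.33, with a median of -0.10 beside -0.02 over all genes. Zfpm1 was at -0.0357 without WT KLS 1 and -0.45 without WT KLS 2. That of Klf1 was 0.0152 with each array centred on its median.

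In MEP cells the largest difference was that of Fli1, at 6.73 and 6.97 in TG and 8.76 and 6.92 in WT cells. TG minus WT was -0.98 ± 0.53 (SE, 95% interval -2.19 to 0.22, limma adjusted p = 1). Leaving out WT MEP 1 gave -0.0655 and leaving out WT MEP 2 gave -1.90, so the size rests on WT MEP 1. Runx1 followed the same course, at -0.30 on all arrays, -0.0192 without WT MEP 1 and -0.59 without WT MEP 2. Nfe2 did too, at -0.31, -0.0487 and -0.57. By limma 0 members and 0% of all genes passed, and at an unadjusted p under 0.05 there were 0 members and 739 genes, 3.71% of all. TG and WT arrays did not overlap for 3 members (Gata2, Zfpm1 and Nfe2, each lower in TG), beside 30.2% of all genes. Gata1 (0.12) and Klf1 (0.06) had 95% intervals from -0.22 to 0.46 and from -0.25 to 0.37. Gata1 turned to -0.0271 without WT MEP 1, and Klf1 to -0.0288 without TG MEP 1 and -0.0591 with median centring.

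**Figure D5:**
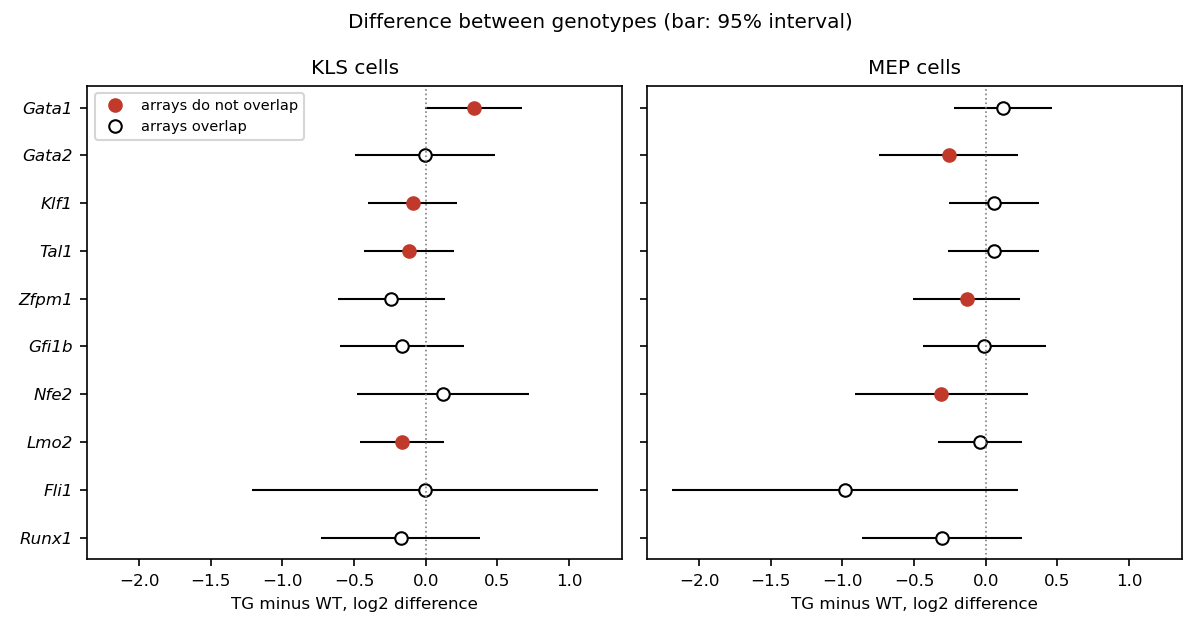
TG minus WT log2 difference (horizontal axis) of each factor in KLS cells (left) and MEP cells (right), with 95% intervals; filled points mark members whose TG and WT arrays do not overlap. In both panels the interval of every factor includes 0, and that of Fli1 is the widest, from -2.19 to 0.22 in MEP cells.

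With both cell types averaged, 0 members and 0% of all genes passed, and at an unadjusted p under 0.05 there were 0 members and 649 genes. The members ran from -0.50 (Fli1) to 0.23 (Gata1), and 1 of 10 was above 0, where 46.0% of all genes were. Leaving out 1 array put 1 to 4 members above 0, with 4 without WT MEP 2, and without WT MEP 1 Fli1 was at -0.0363 and Nfe2 at 0.0362. The lists around the factors had 0 genes past the threshold by genotype in either cell type. The erythroid targets with the smallest p in TG against WT MEP cells were the nuclear transport receptor Xpo7 at -1.44 ± 0.24, the haem synthesis enzyme Alas2 at -1.20 ± 0.24 and the survival gene Bcl2l1 at -1.11 ± 0.23 (limma adjusted p = 1 for each). The late erythroid marker means given above, which include Alas2, were also lower on both TG MEP arrays, and the part of such cells in these values was not tested.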

How the data were processed

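Probe set values of 8 Affymetrix arrays were deposited by the authors on a log2 scale, as read from the values, which run from 1.71 to 14.0. Affymetrix Expression Console is named, without a version, per the submitters' processing notes. The sources used here do not give how signals were summarized, background-corrected or normalized. Groups and replicate numbers came from the sample titles. The deposited medians spanned 0.106, over the limit of 0.1, so arrays were quantile normalized. Of 35556 probe sets, 21789 had 1 symbol in the platform annotation, updated through a RefSeq table of GRCm38.p6. The brightest probe set was kept for each of 19938 genes. limma 3.58.1 in R 4.3.3 fitted the 4 group means to the 8 arrays together, with 4 residual degrees of freedom and 4.82 from the prior. P-values were two-sided, Benjamini-Hochberg adjustment took in every gene, and genes with an adjusted p under 0.05 were called. The procedure was also run on simulated data, drawn as independent normal values around each gene's mean. That simulation held no outlying array, so it does not cover an array such as WT MEP 1. Errors are limma's standard errors, and the number of arrays limits the precision.

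The members and lists were chosen with earlier results of these data known. The named genes are the 10 members, from each list the genes past the threshold (up to 6) or the 3 with the smallest p, and the 5 genes most like Gata1, Klf1 and Gata2, with clone names left out. Gp5, Pf4, Cxcr2, Hlf and Flt3, and the ETS family, were chosen after their values were seen. Alternatives were the deposited values, centring on the median, a filter on the dimmest 30% of genes, averaging probe sets, an intensity trend, array weights, a replicate block, the arrays of 1 cell type and leaving out each array.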

Additional observations from a re-analysis of the deposited data

Results flagged for a closer look

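Each member was examined within the 4 KLS and the 4 MEP arrays for 1 array far from the other 3, which gave 20 sets of 4 arrays, and chance marks about 1 in 20 such sets. In 3 the gap to the nearest array, as a share of the whole range, was above Dixon's 95% critical value. Fli1 on WT MEP 1 was at 8.76 with the other MEP arrays at 6.73 to 6.97, and the gap was 0.88 of the range. Nfe2 on WT MEP 1 was at 8.86 with the others at 8.27 to 8.34, and the gap was 0.877 of the range. Zfpm1 on WT KLS 1 was at 8.01 with the others at 7.52 to 7.60, and the gap was 0.845 of the range.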

How the results depend on the processing

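Of 150 values of the members between KLS and MEP cells under the alternatives, 142 kept direction and side of the threshold, 6 passed it and 2 turned. Without the dimmest 30% of genes 1 member passed (Gata1), and 0 to 3 passed with 1 array left out, the 3 without WT MEP 1. The number of all genes called was 319 (240 higher in KLS, 79 in MEP), 123 (79 and 44) with median centring, and 1 to 738 with 1 array left out, the lowest without TG MEP 1. Without WT MEP 1, chosen after the values were seen, 690 genes and 2 members passed as deposited, and 579 genes and 1 member (Fli1) with the replicate block. Within WT cells 1 gene was called, and 1 to 59 with 1 array left out. Within TG cells 27 were called, 1 with median centring, 89 with array weights and 0 to 257 with 1 array left out, with 0 to 1 members (Fli1, without WT MEP 1 or without WT MEP 2). By genotype in MEP cells 0 to 144 genes passed with 1 array left out, over both cell types 0 to 67, and for the interaction 0 to 10, the highest each without WT MEP 2, and 0 members.

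Directions turned for members near 0. With 1 array left out, KLS minus MEP ran from -0.0452 to 0.27 for Gata2 and from -0.0186 to 0.39 for Nfe2. TG minus WT in KLS cells ran from -0.32 to 0.31 for Gata2, -0.37 to 0.0431 for Gfi1b, -0.29 to 0.53 for Nfe2, -0.43 to 0.42 for Fli1 and -0.45 to 0.10 for Runx1. In MEP cells it ran from -0.0271 to 0.27 for Gata1, -0.0288 to 0.15 for Klf1, -0.0471 to 0.16 for Tal1 and -0.21 to 0.19 for Gfi1b. As deposited, it was 0.0922 for Fli1 in KLS cells, and -0.0319 for Klf1 and -0.0372 for Tal1 in MEP cells. With median centring it was 0.0295 for Gata2, 0.0152 for Klf1 and 0.12 for Fli1 in KLS cells, and -0.0591 for Klf1 and -0.0644 for Tal1 in MEP cells. The cause was not tested.

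Replicate numbers were not taken as pairs. Gaps between replicates 1 and 2 correlated across genes at 0.18 to 0.38 among WT KLS, TG KLS and WT MEP, and at -0.28 to -0.17 between each of these and TG MEP. With the replicate block, 562 genes and 2 members (Fli1 and Runx1) were called between KLS and MEP cells, 8 genes within WT, 111 within TG and 1 by genotype over both cell types. The lowest signals cannot be told from background, since no detection calls were used.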

Other observations

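Fli1, Erg, Etv6 and Spi1 belong to the ETS family of transcription factors, and the family was looked at after their values were seen. Of 25 measured ETS genes, 17 were above 0 in KLS minus MEP, where 53.5% of all genes were. Their median was 0.13 beside 0.01 over all genes. As higher in KLS cells 3 were called (Erg, Etv6 and Spi1), beside 1.20% of all genes. The 4 with a difference over 2 fold were these 3 and Fli1, the genes that led to the family being looked at. Of all genes 1.27% had such a difference toward KLS, but with the family chosen through these genes the shares cannot be compared. Elk3, an ETS repressor, stood at 0.88 ± 0.20 (limma adjusted p = 0.0691), while Gabpa, an ETS activator of housekeeping genes, stood at -0.23 ± 0.13. Of the 25, 15 were highest among the MEP arrays on WT MEP 1.

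Fli1 differed between replicate preparations within groups. Replicate 1 minus replicate 2 was 0.85 in WT KLS, 0.74 in TG KLS, 1.84 in WT MEP and -0.24 in TG MEP cells. For Runx1 the same gaps were 0.55, 0.25, 0.57 and -0.29, and for Klf1 they were 0.01, 0.12, -0.07 and 0.17.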
